A study of Mus musculus with 20 samples.

Results

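The genes described here are 51 mouse genes of DNA replication and S phase, chosen by name for their roles and matched by symbol to Ensembl gene identifiers, out of 56239 genes counted in the series. They comprise 11 genes of origin licensing, 1 inhibitor of licensing, 7 genes of origin firing, 8 polymerase and primase genes, 9 genes of the sliding clamp, the clamp loader and the single-strand binding complex RPA, 2 genes of Okazaki fragment joining, 4 genes of nucleotide supply, 7 genes of E2F factors and cyclin E, and 2 genes of maintenance DNA methylation. Of these, 49 had enough counts to be tested among 16601 genes, and 2 (Cdt1 and Tk1) were listed at 0 counts in every library.

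RNA attached to chromatin, which is enriched for transcripts still being made, was sequenced from B3, a pre-B cell line of the mouse, transduced by retrovirus with Ikaros-ERt2. In this fusion, IKZF1 (Ikaros, a zinc finger transcription factor of lymphocytes) is held out of the nucleus until 4-hydroxytamoxifen (4-OHT) is added. Cells were untreated (0 h) or received 500 nM 4-OHT for 0.5, 1, 2, 6, 12, 15, 18, 21 or 24 h, with 2 libraries per time point, which makes 20 libraries over 10 time points. All 20 libraries came from transduced cells of 1 line, and cells that received 4-OHT without the fusion were not analysed here, so the effects of the factor, of 4-OHT itself and of time in culture cannot be told apart.

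Libraries held 33296158 to 46868954 counts, with a median of 40943260. Of 10 pre-B cell marker genes, 8 were above 1 CPM (read count scaled to a common library size) at 0 h and 2 were listed at 0 counts. The list summed to between 8130 and 16600 CPM across the libraries, and Ebf1 alone was at 9790 CPM at 0 h. The sum hides changes in both directions. Igll1 and Vpreb1 fell from means of 169 and 17.6 CPM at 0 h to 0.985 and 0.37 CPM at 24 h. At the thresholds given below, 2 of the 8 were called lower at 24 h and 5 higher, against 20.1% and 20% of all tested genes. T cell markers summed to 2.72 to 6.8 CPM and myeloid markers to 0.601 to 2.29 CPM, with 1 of 8 above 1 CPM at 0 h in each. Erythroid markers summed to 237 to 1040 CPM, with 237 to 245 at 0 h and 1020 to 1040 at 24 h. Here too, 1 of 8 was above 1 CPM at 0 h, the transferrin receptor gene Tfrc, which B cells express too. Tfrc rose from a mean of 229 CPM at 0 h to 1170 at 24 h, and the cause was not tested. Marker sums are relative to the library total, and all other CPM values use TMM scaling factors. Ikzf1, whose counts cover both the construct and the cells' own gene, was at 4840 and 4840 CPM at 0 h and at 9230 and 8380 CPM at 24 h. The 2 libraries of a time point differed most at 12 and 18 h, with a chi-square per degree of freedom of 9.95 and 14.9, against 1.26 to 4.78 at the other time points.

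Before S phase, the origin recognition complex, together with Cdc6 and Cdt1, loads the MCM helicase onto origins of replication, and geminin (Gmnn) blocks this step once S phase has begun. The kinases Cdc7-Dbf4 and cyclin E-Cdk2 then switch the helicase on with the help of Mcm10, Cdc45 and the GINS complex, and polymerases α, δ and ε copy the DNA while PCNA holds them on it. E2F transcription factors raise the transcription of many of these genes as cells pass from G1 into S phase. Their RNA can therefore depend on the share of cells that are cycling, which was not analysed here. In bulk RNA, fewer cells in S phase and less RNA of these genes in each cell cannot be told apart.

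Promoter sequences (the 250 bases before and 50 bases after each transcription start, RefSeq, GRCm38.p6) were at hand for 43 of the 51 genes. Entries were missing for Mcm4, Gmnn, Gins1, Gins4, Pole, Prim2, Rfc2 and Ccne2. An E2F-type element, searched on both strands as TTTGGCGC, TTTCCCGC, TTTGCCGC or TTTCGCGC, was present in 18 of the 43 (41.9%). The same letters were present in 477 of 11241 tested genes with a promoter (4.24%), in 704 of 27025 genes in all (2.6%), and in 1 of 25 genes of a mitosis list (4.0%). In the 100 bases before the start alone, 5 of the 43 (11.6%) held it, against 1.61% of the tested genes. The following 80-base stretches, read 5′ to 3′ on the strand of the gene, hold the element before the start. Only stretches with no base inside the gene's own model are shown. The element was also in the promoters of Cdc6, Cdt1, Dnmt1, E2f2, Gins3, Lig1, Mcm3, Mcm7, Orc1, Pold1, Pole2, Rfc3 and Uhrf1. None of these genes had such a stretch. Capitals mark the matching letters, which in Mcm5 and in the first Mcm6 stretch are 2 matches on opposite strands that overlap by 4 bases.
Mcm5, chr8:75109320-75109399, plus strand: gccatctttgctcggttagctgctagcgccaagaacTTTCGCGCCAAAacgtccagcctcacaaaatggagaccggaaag
Mcm6, chr1:128359772-128359851, minus strand: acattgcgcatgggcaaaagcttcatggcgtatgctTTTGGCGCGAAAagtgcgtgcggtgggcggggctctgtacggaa
Mcm6, chr1:128359709-128359788, minus strand: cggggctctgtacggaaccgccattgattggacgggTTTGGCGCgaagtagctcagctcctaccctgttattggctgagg
Pola1, chrX:93632250-93632329, minus strand: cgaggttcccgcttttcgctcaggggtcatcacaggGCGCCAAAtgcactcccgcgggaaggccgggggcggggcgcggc
E2f3, chr13:29986064-29986143, minus strand: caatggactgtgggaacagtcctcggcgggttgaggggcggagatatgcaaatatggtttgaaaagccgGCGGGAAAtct
E2f7, chr10:110745205-110745284, plus strand: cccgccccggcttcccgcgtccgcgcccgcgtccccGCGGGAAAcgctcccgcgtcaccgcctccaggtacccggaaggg

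The other elements counted in the same windows included those of general and late cell cycle promoters. The CCAAT box (CCAAT, the site of the factor NF-Y) was present in 28 of the 43 genes (65.1%), against 42.6% of tested genes and 80% of the mitosis list. The CHR element of late cell cycle genes (TTTGAA or TTCGAA) was present in 13 of the 43 (30.2%), against 17.7% of tested genes and 76% of the mitosis list. The core of the Ikaros binding site (TGGGAA) was present in 17 of the 43 (39.5%), against 27.4% of tested genes and 24.0% of the mitosis list. A letter match is not a binding site, and binding was not analysed here. The Tyms promoter is shown because Tyms was the only replication gene called at 1 h, a choice made after its values were seen. It held no E2F-type element and 1 match to the Ikaros core on the opposite strand. Of the other genes lower at 1, 2 and 6 h at any fold, E2f3, Pole2 and Rfc3 also held the core. Rrm1, Rrm2, E2f1, E2f8, Mcm2 and Uhrf1 did not. Capitals in the Tyms stretch mark its match, which begins 18 bases before the start.
Tyms, chr5:30073626-30073745, minus strand: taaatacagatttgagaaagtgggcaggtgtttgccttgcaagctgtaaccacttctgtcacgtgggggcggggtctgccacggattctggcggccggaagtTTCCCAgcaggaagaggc

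The median change of the replication genes stayed small for 6 h after IKZF1 induction, and most of the genes then fell. Their counts made up 0.712% and 0.710% of the 2 libraries at 0 h, 0.726% and 0.726% at 30 min, and 0.648% and 0.645% at 6 h. The share was 0.564% and 0.555% after 12 h, 0.416% and 0.418% after 15 h, 0.312% and 0.314% after 18 h, 0.261% and 0.259% after 21 h, and 0.232% and 0.241% after 24 h. From 12 h on, both libraries of every time point lay below both libraries of each earlier one. This share leans on genes with many counts. Pola1 had means of 1040 CPM at 0 h and 213 at 24 h, and Prim2, which did not fall by 24 h, 807 and 1100. The median log2 fold change against 0 h over the 49 genes tested was 0.07 after 30 min, −0.11 after 1 h, −0.05 after 2 h and −0.04 after 6 h. It was −0.35 after 12 h, −0.80 after 15 h, −1.22 after 18 h, −1.66 after 21 h and −1.92 after 24 h, while the median of all tested genes at 24 h was −0.011.

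**Figure D1:**
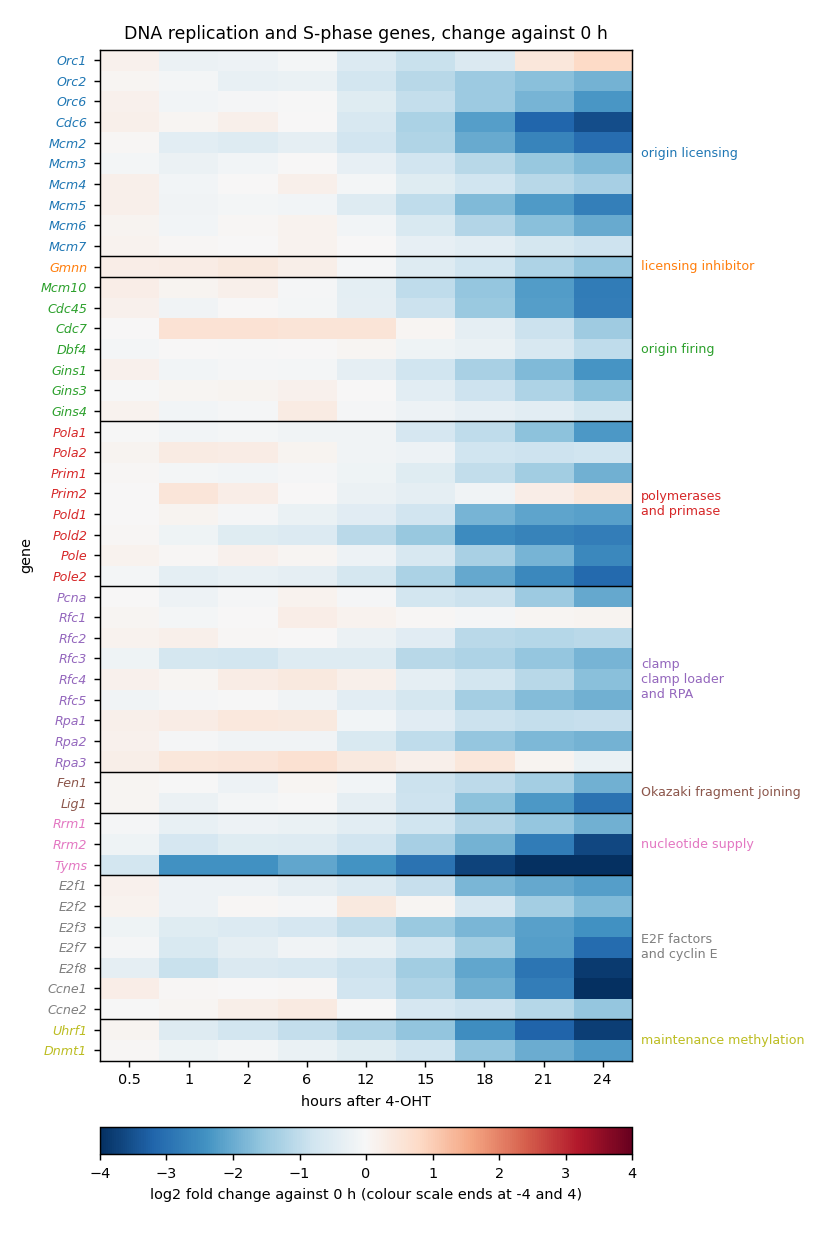
Log2 fold change against 0 h (colour, blue lower and red higher, scale ending at −4 and 4) of the 49 tested replication genes (rows, grouped by role) at 9 times after 4-OHT (columns, hours). Most rows are pale until 6 h and blue from 15 h on; Tyms is blue from 1 h, and Orc1 and Prim2 are red at 24 h.

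Changes were called with edgeR's quasi-likelihood test at a Benjamini-Hochberg adjusted p under 0.01 together with a fold change above 2, and genes are said below to have fallen or risen where they passed at any fold. All comparisons with 0 h share its 2 libraries. No replication gene was called at 30 min, where 0.41% of all tested genes were called lower and 0.0542% higher. The only gene called at 1, 2 and 6 h was Tyms, called lower, while the backgrounds of genes called lower were 4.84%, 6.91% and 9.13% and those of genes called higher 2.33%, 6.25% and 10.9%. At 12 h, 3 genes were called lower (Tyms, Uhrf1 and Pold2; background 9.92%, and 13.2% for higher), while 31 were lower and 5 higher at any fold (29.5% and 31.2%). The count of genes called lower was 15 after 15 h (background 13.1%), 31 after 18 h (17.6%), 39 after 21 h (19.4%) and 41 after 24 h (20.1%). At any fold, 44 genes were lower and 0 higher at 15 h (backgrounds 32.6% and 33.1%), 47 and 1 after 18 h (36% and 35.3%), 45 and 2 after 21 h (36% and 35.7%) and 45 and 3 after 24 h (36.1% and 35.4%). None of the 49 was called higher than at 0 h at any time, where the background of genes called higher was 15.3% after 15 h, 19.1% after 18 h, 20.1% after 21 h and 20% after 24 h. The 41 genes lower at 24 h are 83.7% of those tested, and over the whole time course 41 of 49 (83.7%) were called changed, against 51.9% of all tested genes. Going by sign alone, 46 of the 49 lay below 0 at 24 h, against 50.3% of all tested genes.

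**Figure D2:**
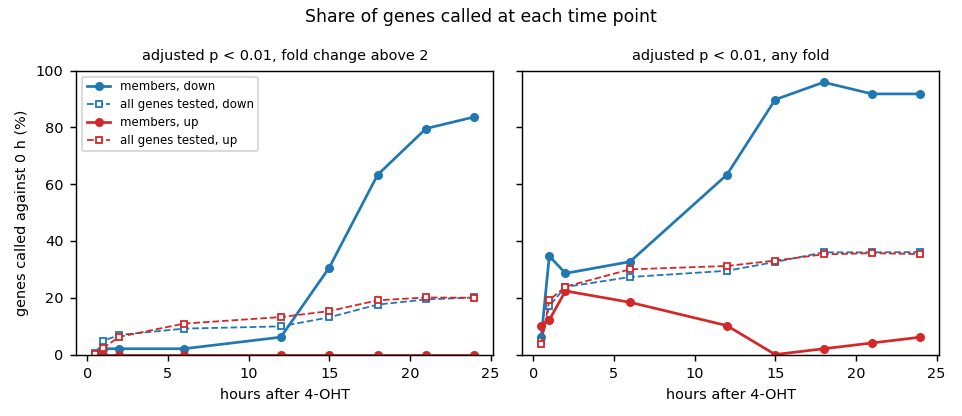
Share of genes (percent) called lower (blue) or higher (red) than at 0 h against hours after 4-OHT, for the 49 replication genes (filled circles) and all 16601 tested genes (open squares, dashed), with a fold threshold of 2 (left) and without one (right). With the fold threshold, the replication genes lie below the background until 12 h and reach 83.7% lower at 24 h, against 20.1% of all genes.

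Without the fold threshold, small early changes in both directions were visible. At 1 h, 17 genes (34.7%) had fallen and 6 (12.2%) had risen, against 17.1% and 19.2% of all tested genes. At 2 h, 14 (28.6%) had fallen and 11 (22.4%) had risen, near the 23.8% and 23.9% of all tested genes. At 6 h, 16 (32.7%) had fallen and 9 (18.4%) had risen, against 27.3% and 30.0%. The genes of nucleotide supply (Rrm1, Rrm2 and Tyms), the factors E2f1, E2f3 and E2f8, and Mcm2, Pole2, Rfc3 and Uhrf1 were lower at 1, 2 and 6 h. The kinase gene Cdc7, the inhibitor gene Gmnn and the RPA genes Rpa1 and Rpa3 were higher at all 3 of these times. How many of all tested genes were lower or higher at all 3 times was not counted. Between 2 and 6 h, 0 of the 49 were called lower and 0 higher (backgrounds 3.26% and 3.91%), with 7 lower and 4 higher at any fold (backgrounds 14.8% and 19.6%).

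Of the 3 steps tested between induced time points (2 to 6, 6 to 12 and 12 to 24 h), that from 6 to 12 h was the first in which most of the genes moved in 1 direction. None was called at 2-fold between these times (backgrounds 2.11% lower and 2.69% higher), but 35 of 49 had fallen at any fold (background 13.5%) and 1 had risen (14.0%). The gene that rose was E2f2, one of the activating E2F factors, by 0.46 on the log2 scale (SE 0.0741, adjusted p = 4.08e-05). Its level was 102 and 100 CPM at 6 h and 129 and 149 CPM at 12 h. The libraries of 12 h differed more than those of most times, so p-values between 6 and 12 h can be too small. Of the 35, Ccne1 fell most, by 0.81, followed by Cdc6, which fell by 0.66. Between 12 and 24 h, 40 of 49 were called lower (background 9.05%) and 1, Orc1, was called higher (6.43%). At any fold, 46 had fallen and 2 had risen in this step (backgrounds 25.1% and 25.1%).

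Among genes of origin licensing, 8 of the 10 tested were called lower at 24 h, against 20.1% of all tested genes. The median log2 fold change of the 10 was −1.95. Cdc6, the ATPase that brings the helicase to the origin recognition complex, changed most. It was at 54.1 and 58.2 CPM at 0 h, 58.9 and 55.7 after 6 h, 37.3 and 35.4 after 12 h, 22.4 and 24.3 after 15 h, 11.8 and 12.6 after 18 h, and 5.25 and 4.37 after 24 h. The libraries of 12 h and later lay below all earlier ones, and the fall at 24 h was 11.7-fold (log2 fold change −3.55, SE 0.0784, adjusted p = 2.8e-20).

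The 6 genes of the MCM2-7 helicase did not fall equally. Mcm2 and Mcm5 were lower by 8.28-fold and 6.62-fold at 24 h, Mcm6, Mcm3 and Mcm4 by 4.06-fold, 3.42-fold and 2.51-fold, and Mcm7 by 1.77-fold, below the fold threshold (log2 fold change −0.83, SE 0.0734, adjusted p = 1.07e-09). Mcm7 was at 95 and 93.5 CPM at 0 h, 104 and 83.9 after 12 h and 51.8 and 54.4 after 24 h. The 2 promoters of Mcm7 together hold 2 matches to the E2F-type element, and a site in both windows would count in each. The 1 promoter of Mcm5, whose stretch is shown above, holds 2 matches that overlap. Of the Mcm7 span, 9.43% is shared with other counted genes, and none of the spans of Mcm2, Mcm3, Mcm4, Mcm5 and Mcm6 is.

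The origin recognition genes went separate ways. Orc6 and Orc2 fell by 5.07-fold and 3.68-fold at 24 h, whereas Orc1 fell first and then rose. Orc1 (chr4:108579423-108614833, GRCm38, plus strand) was at 37.5 and 34.5 CPM at 0 h, 33.7 and 34.2 after 6 h, 25.3 and 24.4 after 12 h, 19.8 and 19.5 after 15 h, 24.8 and 23.9 after 18 h, 49.4 and 48.7 after 21 h, and 63.8 and 61.4 after 24 h. The 15 h libraries were the lowest and the 24 h libraries the highest, with no overlap with 0 h at either time. Against 0 h the log2 fold change was −0.88 at 15 h (SE 0.0570, adjusted p = 8.23e-12) and 0.80 at 24 h (SE 0.0523, adjusted p = 6.27e-12). Between 12 and 24 h it was 1.33 (SE 0.0551, adjusted p = 5.74e-15). Of the span of Orc1, 63.3% is shared with Gm12743, a counted gene on the opposite strand, which had 275 and 278 counts at 0 h and 679 and 763 at 24 h. Gm12743 had a log2 fold change of 0.61 at 15 h and of 1.75 at 24 h (SE 0.0726, adjusted p = 1.83e-15). The part of the neighbour in the Orc1 counts was not tested. The Orc1 promoter held 1 E2F-type element.

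Cdt1, the factor that loads the helicase together with Cdc6, could not be measured. Its span (chr8:122568015-122573554, 5.54 kb) lies wholly inside Gm20388, a longer gene on the same strand. Tk1, the thymidine kinase, likewise lies (chr11:117815526-117826092, 10.57 kb) wholly inside Gm20708, on the opposite strand. Of 700 protein-coding genes wholly inside genes of the opposite strand, 695 (99.3%) had 0 counts in all 20 libraries, as had 306 of 309 (99.0%) wholly inside genes of the same strand and 2174 of 11829 (18.4%) that share no span. The zeros of Cdt1 and Tk1 thus say nothing about their transcription. Gm20388 and Gm20708, which cover them, had log2 fold changes of −0.97 and −1.66 at 24 h. Among the genes tested, span is also shared for Fen1 (67.7%), Orc1 (63.3%), Orc2 (45.0%), Ccne2 (41.9%), E2f8 (24.0%) and Pole2 (10.5%). Their values describe mainly the rest of the gene.

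Gmnn, the inhibitor of relicensing, was at 32.4 and 33.7 CPM at 0 h, 42.4 and 44.3 after 2 h, 34.5 and 29.9 after 12 h and 11.1 and 10.8 after 24 h. It had risen at 2 h (log2 fold change 0.39, SE 0.0670, adjusted p = 3.5e-05) and was lower by 3.02-fold at 24 h (−1.59, SE 0.0791, adjusted p = 4.38e-14).

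Among genes of origin firing, 6 of 7 were called lower at 24 h (20.1% of all tested genes), with a median log2 fold change of −1.65. Mcm10, which activates the loaded helicase, fell most, from 112 and 115 CPM at 0 h over 89.9 and 83.1 at 12 h to 15.9 and 17 at 24 h. This was a fall of 6.9-fold (log2 fold change −2.79, SE 0.0565, adjusted p = 6.85e-21). Cdc45, a subunit of the active helicase, fell by 6.86-fold. The GINS subunits differed among themselves, with Gins1 lower by 5.11-fold and Gins3 by 3.14-fold. Gins4 was at 16.5 and 16.6 CPM at 0 h and 10.3 and 10 at 24 h, a 1.63-fold fall that was not called (log2 fold change −0.70, SE 0.0842, adjusted p = 1.38e-07).

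The 2 subunits of the Dbf4-dependent kinase had the latest falls. Cdc7, the catalytic subunit, rose from 67.1 and 67.8 CPM at 0 h to 99.4 and 102 after 1 h, and stood at 95.7 and 98.2 after 6 h and 100 and 90.6 after 12 h. All 8 libraries from 1 to 12 h lay above those of 0 and 0.5 h, and the log2 fold change at 1 h was 0.58 (SE 0.0558, adjusted p = 1.88e-08). Cdc7 was back at 69.8 and 72.5 CPM at 15 h and at 24.8 and 25.9 at 24 h (log2 fold change −1.41, SE 0.0628, adjusted p = 5.98e-15). Dbf4, its activating subunit, was at 94.5 and 98.3 CPM at 0 h, 106 and 99.9 after 12 h and 48.6 and 47.1 after 24 h. Its fall at 24 h, 2.02-fold, was only just past the fold threshold (log2 fold change −1.01, SE 0.05, adjusted p = 4.13e-14). This call was lost with DESeq2's size factors or test, against the 30 min libraries, and without 0 h replicate 2 or 24 h replicate 2. In these fits 40 genes in all were called lower at 24 h, or 41 against the 30 min libraries.

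**Figure D3:**
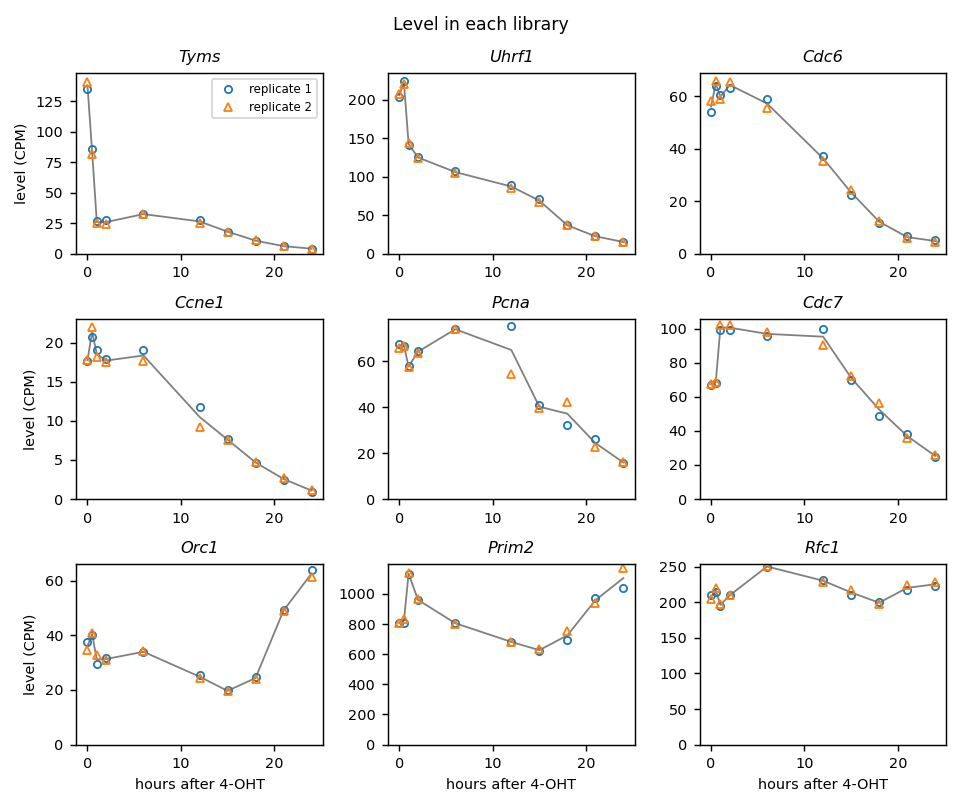
Level (CPM with TMM factors, axes from 0) of 9 replication genes in each library (blue circles replicate 1, orange triangles replicate 2) against hours after 4-OHT, with lines through the means. Tyms drops within 1 h and again after 12 h, Cdc7 is raised from 1 to 12 h, and Orc1 and Prim2 reach their lowest level at 15 h and end above 0 h.

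Of the 8 polymerase and primase genes, 6 were called lower at 24 h (20.1% of all tested genes), and the median log2 fold change was −2.23. Pole2, the second subunit of the leading-strand polymerase ε, fell from 49.9 and 51.2 CPM at 0 h to 31.5 and 30.5 after 12 h and 6.02 and 5.59 after 24 h. The fall was 8.7-fold (log2 fold change −3.12, SE 0.0582, adjusted p = 1.83e-21), and Pole, the catalytic subunit, fell by 5.95-fold. Pold2, of the lagging-strand polymerase δ, was among the earliest to be called. It was at 10.3 and 9.75 CPM at 0 h, 4.92 and 4.64 after 12 h and 1.49 and 1.44 after 24 h, with a log2 fold change of −1.07 after 12 h (SE 0.0941, adjusted p = 1.61e-09). Pold1, the catalytic subunit of δ, fell by 4.51-fold at 24 h.

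Polymerase α and primase form 1 complex that makes the primers, and its 4 genes ended at 4 levels. Pola1 fell by 4.89-fold, Prim1 by 3.79-fold and Pola2 by 1.73-fold, the last without being called. Prim2, the large primase subunit, was the exception, at 809 and 804 CPM at 0 h, 1130 and 1140 after 1 h, 809 and 802 after 6 h, 618 and 635 after 15 h, and 1040 and 1170 after 24 h. Its libraries at 1 and 24 h lay above those of 0 h, and those at 15 h below. The log2 fold change was 0.49 at 1 h (SE 0.0429, adjusted p = 3.9e-09), −0.36 at 15 h (SE 0.0430, adjusted p = 1.31e-07) and 0.45 at 24 h (SE 0.0429, adjusted p = 3.11e-09). None of these passed the fold threshold. With library totals in place of TMM factors the value at 24 h was 0.20.

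Of the clamp, clamp loader and RPA genes, 6 of 9 were called lower at 24 h, against 20.1% of all tested genes (median log2 fold change −1.66). Pcna, the sliding clamp, fell most, and its 2 libraries lay farthest apart at 12 and 18 h. It was at 67.6 and 65.9 CPM at 0 h, 75.6 and 54.3 after 12 h, 32.3 and 42.1 after 18 h and 15.7 and 16.2 after 24 h. From 15 h on, all libraries lay below those of 0 to 12 h, and the log2 fold change at 24 h was −2.06 (SE 0.120, adjusted p = 7.92e-13). The clamp loader has 1 large and 4 small subunits. The small ones fell by 3.77-fold (Rfc5), 3.64-fold (Rfc3), 3.17-fold (Rfc4) and 2.11-fold (Rfc2). The large one, Rfc1, was at 210 and 205 CPM at 0 h and 223 and 228 at 24 h. Its log2 fold change was 0.12 (SE 0.0330, adjusted p = 0.00239), a rise whose sign turned with library totals in place of TMM factors (−0.14).

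RPA coats single-stranded DNA as a trimer, and its 3 genes also moved unequally. Rpa2 fell by 3.67-fold at 24 h, while Rpa1 had risen at 2 h (log2 fold change 0.43, SE 0.0330, adjusted p = 3.84e-10) and had fallen by 1.91-fold at 24 h. Rpa3 was at 10.1 and 9.64 CPM at 0 h, 14.6 and 15.4 after 6 h and 7.9 and 8.58 after 24 h. Its log2 fold change at 6 h was 0.60 (SE 0.108, adjusted p = 4.58e-05), and at 24 h it was −0.26 (SE 0.121, adjusted p = 0.0571), the only replication gene whose 24 h value missed the adjusted p threshold.

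Both genes of Okazaki fragment joining were called lower at 24 h, against 20.1% of all tested genes. Lig1, the ligase that seals the fragments, fell from 175 and 172 CPM at 0 h to 138 and 135 after 12 h and 21.9 and 23.3 after 24 h, by 7.67-fold (log2 fold change −2.94, SE 0.0424, adjusted p = 3.61e-23). Fen1, the flap endonuclease, was at 2.74 and 2.75 CPM at 0 h and 0.865 and 0.597 at 24 h (log2 fold change −1.92, SE 0.191, adjusted p = 7.09e-09). Of the span of Fen1, 67.7% is shared with other genes, and the part of this in its low counts was not tested.

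Nucleotide supply held the earliest and largest change. Tyms, thymidylate synthase (chr5:30058202-30073617, GRCm38, minus strand), was at 135 and 141 CPM at 0 h, 85.4 and 81.6 after 30 min, 27.1 and 24.7 after 1 h, 32.3 and 32.5 after 6 h, 27.4 and 25.4 after 12 h, 18.1 and 17.9 after 15 h, 10.4 and 10.9 after 18 h, and 3.94 and 4.18 after 24 h. The level thus fell in 2 stages with a plateau from 1 to 12 h, and no library after 0 h overlapped with those at 0 h. The log2 fold change was −0.73 at 30 min (SE 0.0518, adjusted p = 2.4e-09), −2.42 at 1 h (SE 0.0566, adjusted p = 3.11e-18) and −2.39 at 12 h. Between 2 and 6 h Tyms had risen slightly, by 0.33 (SE 0.0598, adjusted p = 0.000129). The second stage, from 12 to 24 h, was a log2 fold change of −2.70 (SE 0.0834, adjusted p = 3.85e-17), and the whole fall was 34.0-fold (−5.09, SE 0.0749, adjusted p = 4.9e-23).

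Ribonucleotide reductase, which makes deoxynucleotides, fell mainly after 12 h in both subunits. Rrm1 was at 141 and 143 CPM at 0 h, 118 and 120 after 6 h and 37.5 and 38.3 after 24 h (log2 fold change −1.91, SE 0.0416, adjusted p = 2.3e-20). Rrm2, the subunit that is made in S phase, was at 73.7 and 72.4 CPM at 0 h, 45.2 and 46.7 after 1 h, 50.1 and 52.6 after 6 h and 5.96 and 5.86 after 24 h. It had fallen by 1.59-fold at 1 h (log2 fold change −0.67, SE 0.0526, adjusted p = 7.28e-10) and by 12.4-fold at 24 h.

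All 7 genes of E2F factors and cyclin E were called lower at 24 h (20.1% of all tested genes), with a median log2 fold change of −2.41. Ccne1, cyclin E1, which drives entry into S phase with Cdk2, was at 17.7 and 17.8 CPM at 0 h, 19.1 and 17.6 after 6 h, 11.8 and 9.22 after 12 h, 4.65 and 4.70 after 18 h, and 0.954 and 1.22 after 24 h. Its fall was 16.2-fold (log2 fold change −4.02, SE 0.131, adjusted p = 2.49e-17). Ccne2, cyclin E2, was at 42.6 and 42.3 CPM at 0 h, 55 and 54 after 6 h and 14 and 15.3 after 24 h, a 2.9-fold fall (−1.54, SE 0.0790, adjusted p = 8.24e-14). Ints8, which shares 41.9% of the Ccne2 span on the opposite strand, had a log2 fold change of 0.68 at 24 h.

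The repressor genes E2f7 and E2f8, which are themselves turned on by E2F in S phase, fell by 8.41-fold and 14.3-fold at 24 h, and the activator genes E2f1, E2f2 and E2f3 by 4.61-fold, 3.44-fold and 5.33-fold. E2f8 was 1 of 3 replication genes that had already fallen at 30 min (log2 fold change −0.37, SE 0.0458, adjusted p = 6.81e-06), beside Tyms and E2f3 (−0.17). At that time 5 others had risen (Mcm5, Mcm10, Cdc45, Pole and Rpa1, by 0.14 to 0.28), with backgrounds of 4.74% lower and 3.7% higher at any fold. E2f8 was at 73.7 and 70.8 CPM at 0 h, 56.7 and 55.2 after 30 min, 39.4 and 39.3 after 1 h, 46.5 and 45.8 after 6 h and 5.31 and 4.80 after 24 h. E2f3 fell without a plateau, with log2 fold changes of −0.50 after 1 h, −0.68 after 6 h and −0.98 after 12 h. Its level was 713 and 716 CPM at 0 h, 448 and 446 after 6 h, 351 and 373 after 12 h and 132 and 136 after 24 h.

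Uhrf1 and Dnmt1 restore DNA methylation behind the fork, Uhrf1 by recognising hemimethylated CpG sites and Dnmt1 by methylating them. Uhrf1 fell gradually, from 204 and 208 CPM at 0 h to 141 and 144 after 1 h, 126 and 124 after 2 h, 107 and 105 after 6 h, 89.6 and 84.8 after 12 h, 37 and 36.6 after 18 h, and 15.2 and 15 after 24 h. From 1 h on, each time point lay below the one before in both libraries. The log2 fold change was −0.53 at 1 h (SE 0.0366, adjusted p = 8.76e-11), −0.96 at 6 h, −1.24 at 12 h (SE 0.0378, adjusted p = 2.77e-17) and −3.77 at 24 h (SE 0.0457, adjusted p = 2.96e-24). Dnmt1 was at 579 and 573 CPM at 0 h, 478 and 475 after 6 h, 399 and 429 after 12 h and 121 and 119 after 24 h, a 4.8-fold fall (−2.26, SE 0.0421, adjusted p = 1.78e-21).

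The timing of the fall was summarised for the 41 genes called lower at 24 h as the time at which the mean log2 level, interpolated linearly between time points, crossed the midpoint between 0 h and its lowest value. The median was 16.6 h, with quartiles of 16.0 and 17.9 h and a range from 12.8 h (Tyms) to 20 h (Cdc7). Replicate 1 alone gave a median of 16.5 h and replicate 2 alone 17.1 h. The earliest after Tyms were E2f3 (13.3 h), Orc2 (13.6 h), and Pold2 and Rfc3 (both 14.1 h). Medians of roles with more than 1 such gene lay between 15.9 h for the clamp, clamp loader and RPA genes and 17.7 h for origin firing, where Dbf4 (19.8 h) and Cdc7 (20 h) were the latest of all. Replicates alone gave 14.7 and 18.0 h for Fen1, the gene with the widest gap, and samples were taken every 3 h from 12 h on. At the late end they gave 19.3 and 18.3 h for E2f2, 19.7 and 19.9 h for Dbf4, and 20.2 and 20 h for Cdc7. On the linear CPM scale the median was 14.3 h, and the early first stages set the value for Tyms (0.607 h), Rfc3 (0.952 h), Uhrf1 (5.00 h) and E2f3 (7.63 h).

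**Figure D4:**
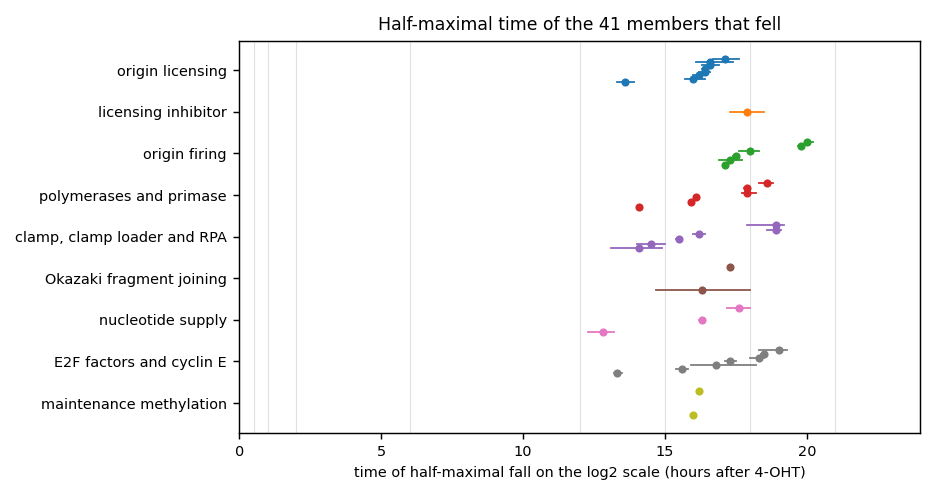
Time of the half-maximal fall on the log2 scale (hours after 4-OHT) of the 41 replication genes called lower at 24 h, by role. Points are values from the mean of both libraries, lines join the values of each replicate alone, and grey verticals mark sampled times. Most points lie between 16.0 and 17.9 h, with Tyms earliest at 12.8 h and Cdc7 latest at 20 h.

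Genes with an E2F-type element in their promoter had a median log2 fold change of −2.26 at 24 h (17 tested genes, −3.77 to 0.80), and those with a promoter but no element −1.92 (24 genes, −5.09 to 0.12). The ranges overlapped nearly throughout, and the most and the second most lowered genes, Tyms and Ccne1, had no element in the window. For the Ikaros core, the medians were −2.26 with (17 genes) and −2.04 without (24 genes).

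Related genes outside the 51 were followed in lists by function, and their counts at 24 h stand beside 20.1% of all tested genes called lower and 20% called higher. Of 27 other genes of the replication machinery tested, 17 were called lower and 0 higher at 24 h (median log2 fold change −1.41). The lowest were Dna2, a nuclease and helicase of Okazaki fragment processing (−3.83), and Timeless, of the fork protection complex (−3.30), and the highest were the origin recognition genes Orc4 (0.42) and Orc5 (0.35), neither called. Of 7 genes of chromatin assembly, 5 were lower and 0 higher (median −2.38), with the remodelling genes Cdca7 (−3.27) and Hells (−3.15) lowest. The histone chaperone gene Nasp had a value of 0.78 and the histone mRNA binder Slbp of −0.69. Of 29 mitosis genes, 26 were lower and 0 higher (median −1.67), from Birc5 (−2.89) and Cdk1 (−2.52) to Ccnb2 (−0.62) and Ndc80 (−0.60).

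Of 12 genes of nucleotide supply outside the 51, 8 (66.7%) were called lower and 4 (33.3%) higher at 24 h, against 20.1% and 20% of all tested genes. The lowest were Dctd, dCMP deaminase (−4.79), which makes the substrate of Tyms, and Ctps, CTP synthase (−3.67). The highest were Samhd1, which breaks down deoxynucleotides (4.11), and Rrm2b, the reductase subunit used outside S phase (2.64). Among 11 kinase and checkpoint genes of S phase, 6 (54.5%) were lower and 2 (18.2%) higher (median −2), the latter share being no more than the 20% of all tested genes. Chek1, the replication checkpoint kinase (−2.95), and Dtl, which targets Cdt1 for destruction (−2.73), were lowest. Cdkn1b, the inhibitor p27 of cyclin E-Cdk2 (2.49), and Skp2, which targets p27 for destruction (1.55), were called higher. Of 11 E2F partners and pocket protein genes, 4 (36.4%) were lower and 2 (18.2%) higher (median −0.29), nearer to the 20.1% and 20% of all tested genes. The list ran from Tfdp1, the dimer partner of E2F (−2.60), and Lin54 (−1.76) to Tfdp2 (1.39) and the retinoblastoma gene Rb1 (1.45).

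**Figure D5:**
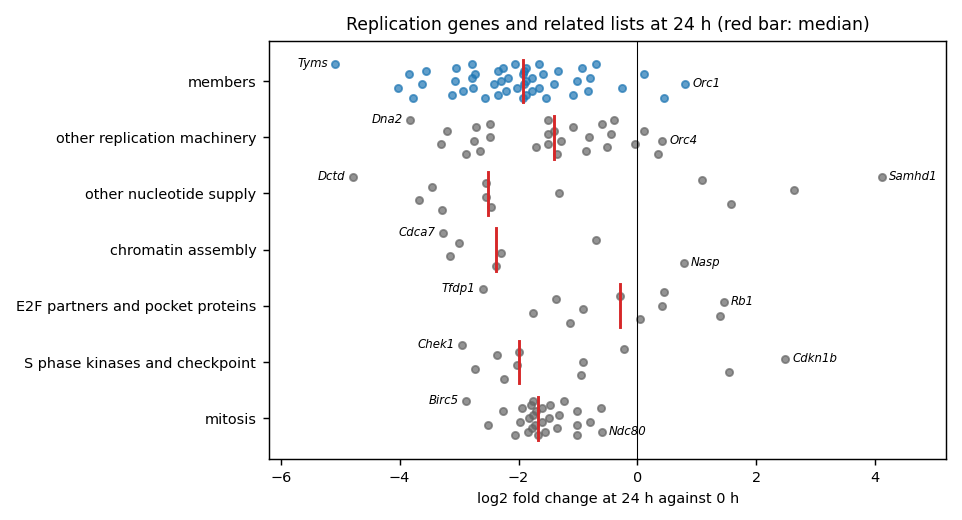
Log2 fold change at 24 h against 0 h (horizontal axis) of each tested gene (points) among the 49 replication genes (blue) and 6 lists of related genes (grey), with list medians as red bars and the extreme genes named. Medians run from −2.51 (other nucleotide supply) to −0.29 (E2F partners and pocket proteins), and genes above 2 are found in the lists of other nucleotide supply (Samhd1, Rrm2b) and of S phase kinases (Cdkn1b).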

How the data were processed

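Chromatin-associated RNA of B3 cells was measured at 10 time points with 2 libraries each. The authors deposited raw read counts per gene, made by aligning reads to GRCm38 (mm10) with STAR and counting with featureCounts, intronic reads included. The submitters' processing notes also name CASAVA 2.17. Libraries were made with a directional kit, and the strand setting of the counting, the annotation release and the handling of shared reads are not given in the sources used here. Time points and replicate numbers came from the sample labels.

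The 16601 genes of 56239 that reached 10 counts in 2 or more libraries were tested in edgeR 4.0.16 (R 4.3.3) with TMM factors and the quasi-likelihood test, with time point as a factor and all 20 libraries in 1 model. Benjamini-Hochberg adjustment ran over all genes tested, and a call needed an adjusted p under 0.01 and a fold change above 2. Fold changes are on edgeR's log2 scale, and log2 CPM used a prior count of 2. Whether libraries of a time point come from separate cultures is not stated, so p-values reflect only the spread between these libraries. That spread was estimated for each gene over all 20 libraries together. At 12 and 18 h the libraries of a time point differed more than elsewhere, so p-values of comparisons with these times can be too small. The model had no replicate block. Counting error is the only error that depth describes. Gene positions came from GENCODE M21, which holds 55154 of the identifiers, and promoters from RefSeq (GRCm38.p6, all promoters of a gene searched together).

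The replication genes, the role lists, the lists of related genes and the cell type markers were chosen with earlier results of these data known. Levels in each library are given for the lowest and highest gene of each role at 24 h, for any gene called higher, and for others where a result turned on them, chosen after their values were seen. Of the related genes, only the 2 lowest and 2 highest of each list are named, and 103 of 104 matched. The steps were tested on simulated counts. Alternatives were DESeq2 1.42.0 and its size factors, library totals, other filters and thresholds, a replicate block, the 30 min libraries as reference and leaving out each library.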

Additional observations from a re-analysis of the deposited data

How the results depend on the processing

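No replication gene's called change reversed direction under any alternative run. Of 4704 values recomputed for single genes, 68 that were past the threshold in neither fit changed sign. Same-numbered deviations had a mean correlation of 0.0304 over 45 pairs of time points and 7876 genes. Replicate numbers thus gave no constant pairing, but single pairs of time points ran from −0.678 to 0.477. A block on replicate number cannot take up differences whose sign changes between time points. With the replicate number as a block, 41 genes were called lower at 24 h and 15 at 15 h, and the block changed no other call of the 49 genes. Leaving out 1 library at a time gave 13 to 15 genes called lower at 15 h, 30 to 32 at 18 h, 39 at 21 h throughout, 40 to 41 at 24 h, 3 to 4 at 12 h and 40 to 41 over the time course. The medians then ran from 0.07 to 0.10 at 30 min, −0.12 to −0.09 at 1 h, −0.06 to −0.03 at 6 h, −1.26 to −1.20 at 18 h, −1.69 to −1.66 at 21 h and −2.03 to −1.92 at 24 h. The median half-maximal time ran from 16.5 to 17.1 h, and was 14.3 h on the linear scale.

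With library totals in place of TMM factors, all genes shifted together at 24 h (median −0.27 against −0.01), and 4260 genes were called lower and 2603 higher (62.1% lower) against 3329 and 3323 (50%). The replication genes' medians were then −0.13 after 1 h, −0.85 after 15 h, −1.35 after 18 h, −1.90 after 21 h and −2.18 after 24 h, with Mcm7, Pola2 and Rpa1 also called lower at 24 h. The 6 h median was −0.07 with DESeq2's size factors, DESeq2's test or no filter, and the 24 h median −1.94 without the filter. Against the 30 min libraries the medians were −0.14 after 6 h, −0.78 after 15 h, −1.62 after 21 h and −2.05 after 24 h, and 2 genes were called lower at 6 h. Dbf4, at the fold threshold at 24 h, lost its call with DESeq2's size factors or test, with the 30 min reference, and without 0 h replicate 2 or 24 h replicate 2. A test against a 2-fold change itself called 9 genes lower at 15 h. The cause of these differences was not tested.

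Without the fold threshold, the counts of genes lower and higher were 3 and 5 after 30 min, 17 and 6 after 1 h, 14 and 11 after 2 h, 16 and 9 after 6 h, 31 and 5 after 12 h, 44 and 0 after 15 h, and 47 and 1 after 18 h, with 2 higher at 21 h and 3 after 24 h. They were 7 and 4 between 2 and 6 h, 35 and 1 between 6 and 12 h, and 46 and 2 between 12 and 24 h. The fewest counts behind a tested replication gene were those of Fen1, whose standard error was the largest at 24 h, and Cdt1 and Tk1 could not be measured at any depth with this counting. On 1 strand only, 20.9% of the promoters held the E2F-type element, against 2.23% of tested genes.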
